A study of Mus musculus with 10 samples.

Results

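The Hist1 histone genes of the mouse lie in blocks on chromosome 13, and the peaks of Nanog, a transcription factor, and Sin3a, a co-repressor protein, within these blocks are described here. The members were chosen by position: they are all peaks that overlapped 13:21700000-22300000 (the first block, 600 kb) or 13:23450000-23950000 (the second block, 500 kb) of genome build mm9. In all, 507 of the 110170 deposited peaks met this rule, and merging peaks that shared at least 1 base across the 4 lists gave 155 of 45707 regions. The blocks were picked with earlier results of these data known, so that peak numbers and strengths in them are a description and no test was made on them.

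ChIP-seq, which sequences the DNA fragments precipitated with a protein, had been run on mouse pre-iPSCs of strain 129/MF1. These are partly reprogrammed cells made from female neural stem cells that carry an Oct4-GFP-IRES-puro reporter, and all groups were grown in serum with LIF. The lines were stably transfected with PiggyBac transposons driven by the broadly active CAG promoter and selected with drugs, so that each transgene was expressed from inserted copies and not from its own locus. The Sin3a line carried Sin3a and an empty vector, the Nanog line carried FLAG-tagged Nanog and an empty vector, and the combined line (Nanog + Sin3a in the plots) carried both proteins. Sin3a was precipitated from the Sin3a line and the combined line with an antibody against the protein itself, which does not separate transgenic from endogenous Sin3a. FLAG was precipitated from the Nanog line and the combined line, which targets the tagged Nanog and not endogenous Nanog. No FLAG ChIP of a line without the tag was among the samples, so FLAG signal from other sources was not measured. Each of these 4 groups had 2 replicates but 1 deposited peak list with no value per replicate. No difference below could therefore be set against the spread between replicates, and the replicates give no error to any value. The 1 input sample and the IgG sample were not analysed here.

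The replication-dependent histone genes encode the core histones H2A, H2B, H3 and H4 and the linker histone H1. They are transcribed mainly in S phase, when newly made DNA has to be packed, and their short messages end in a stem-loop in place of a poly(A) tail. Many H2A and H2B genes stand head to head and share the promoter between them. Sin3a is the scaffold of a complex with histone deacetylases, and Nanog is a homeodomain factor of the pluripotency network.

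In the RefSeq gene table of build GRCm38.p6, 56 genes with an older Hist1h symbol lie on chromosome 13. They comprise 6 H1, 15 H2A, 15 H2B, 9 H3 and 11 H4 genes, of which 54 are protein-coding. Neighbouring H2A and H2B genes form 13 pairs. From H2bc13 to H2bc11 the order of genes holds 24 Hist1h genes among 31 tRNA genes and 3 other protein-coding genes. From H4c8 to H1f1 it holds 29 Hist1h genes, 0 tRNA genes and 1 other protein-coding gene, Hfe, which regulates iron uptake. Between these runs lie 75 vomeronasal receptor genes and pseudogenes of the Vmn1r family and 46 tRNA genes, and 0 Hist1h genes. The peaks are on mm9, another build. No gene coordinate was carried over, no peak was assigned to a gene, and that the blocks hold the histone genes rests on the stated rule.

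RefSeq promoter sequences were matched for 51 of the 56 genes, with 52 start sites in all, since H2bc6 has 2. The 250 bases before the start site are shown for the first gene of each class in gene order, because the classes differ in the promoter elements they carry. Capitals mark CCAAT on either strand (CCAAT or ATTGG), the element bound by NF-Y, and TATAAA, the TATA box.
H1f5 (H1, minus strand, 13:21780626-21780875 of GRCm38.p6): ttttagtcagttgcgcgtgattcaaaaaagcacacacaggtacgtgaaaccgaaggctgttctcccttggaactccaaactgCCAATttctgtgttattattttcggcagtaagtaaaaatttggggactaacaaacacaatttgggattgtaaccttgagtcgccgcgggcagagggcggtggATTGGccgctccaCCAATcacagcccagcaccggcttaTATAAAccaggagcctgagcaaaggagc
H2ac13 (H2A, plus strand, 13:21716162-21716411 of GRCm38.p6): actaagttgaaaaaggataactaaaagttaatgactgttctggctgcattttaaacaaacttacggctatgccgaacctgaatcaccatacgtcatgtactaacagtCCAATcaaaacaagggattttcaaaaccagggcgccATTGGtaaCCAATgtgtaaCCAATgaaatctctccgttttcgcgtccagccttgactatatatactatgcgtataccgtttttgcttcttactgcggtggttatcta
H2bc13 (H2B, minus strand, 13:21716184-21716433 of GRCm38.p6): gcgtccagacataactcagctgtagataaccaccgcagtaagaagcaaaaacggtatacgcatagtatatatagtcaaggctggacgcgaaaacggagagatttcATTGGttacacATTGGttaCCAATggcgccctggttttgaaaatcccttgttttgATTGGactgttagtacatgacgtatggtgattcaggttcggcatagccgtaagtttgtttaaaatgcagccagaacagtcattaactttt
H3c10 (H3, plus strand, 13:21717378-21717627 of GRCm38.p6): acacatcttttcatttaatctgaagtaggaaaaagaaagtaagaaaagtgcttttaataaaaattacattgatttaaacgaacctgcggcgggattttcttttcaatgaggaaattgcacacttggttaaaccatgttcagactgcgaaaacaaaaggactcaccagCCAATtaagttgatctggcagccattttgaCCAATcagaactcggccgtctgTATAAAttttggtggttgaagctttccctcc
H4c11 (H4, plus strand, 13:21734784-21735033 of GRCm38.p6): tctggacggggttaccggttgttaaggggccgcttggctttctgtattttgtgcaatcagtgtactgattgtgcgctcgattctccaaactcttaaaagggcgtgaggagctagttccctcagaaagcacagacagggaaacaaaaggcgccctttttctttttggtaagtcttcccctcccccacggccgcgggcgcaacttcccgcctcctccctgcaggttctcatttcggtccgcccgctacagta
The H2ac13 and H2bc13 windows face each other and share 228 bases, so that both show the same 4 CCAAT matches on opposite strands. H1f5 holds 3 CCAAT matches and a TATAAA, H3c10 holds 2 and a TATAAA, and H4c11 holds 0 of either.

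For CCAAT, these examples follow the classes they come from. CCAAT was present on either strand in 44 of 52 Hist1 windows (84.6%), against 33.8% of all 32851 promoter windows of the same length, and 37 of 52 (71.2%) held at least 2 matches, against 10.1%. The matches were in 6 of 6 H1, 13 of 13 H2A, 15 of 15 H2B and 7 of 7 H3 windows, but in 3 of 11 H4 windows. TATAAA was present on either strand in 26 of 52, against 12.4% of all. The homeodomain core TAATTA was in 2 of 52 (3.85%, against 4.84%), and CATTA, a core found in Nanog sites, in 16 of 52 (30.8%, against 23.9%), both searched on either strand. Each motif was counted on its own, and matches of different motifs may share bases. Paired windows are not independent, a match of this length is not a binding site, and an absent match says nothing about the factor.

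Both proteins had dense peaks in both blocks. Of the Sin3a peaks, 103 of 17168 in the Sin3a line and 100 of 18231 in the combined line lay there. Of the FLAG peaks, the blocks held 154 of 38485 in the Nanog line and 150 of 36286 in the combined line. The blocks make up 0.915% of the span of chromosome 13, yet held 14.8% and 14.1% of its Sin3a peaks and 9.94% and 9.11% of its FLAG peaks, in the same order of lines.

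The second block was the denser for both proteins. It held 64 and 56 Sin3a peaks in the Sin3a and combined lines, or 128 and 112 per Mb, against 39 and 44 in the first block, or 65.0 and 73.3 per Mb. FLAG peaks numbered 89 and 86 in the second block for the Nanog and combined lines, or 178 and 172 per Mb, against 65 and 64 in the first, or 108 and 107 per Mb. The rest of chromosome 13 had 4.99 and 5.10 Sin3a peaks and 11.7 and 12.6 FLAG peaks per Mb. Sin3a peaks thus outnumbered their density elsewhere on the chromosome by more than FLAG peaks did, although FLAG peaks were the more numerous in absolute terms.

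Other windows of the genome seldom held as many peaks. Of 4398 other windows of 600 kb, 10 had more Sin3a peaks than the first block in each line, and 15 and 3 had more FLAG peaks in the Nanog and combined lines. Of 5276 other windows of 500 kb, 0 and 1 had more Sin3a peaks than the second block in the Sin3a and combined lines, and 1 and 0 had more FLAG peaks. The first block held 10.1 and 10.7 times the mean Sin3a number per window, and 7.46 and 7.79 times the mean FLAG number. For the second block these ratios were 19.8 and 16.3 for Sin3a, and 12.3 and 12.6 for FLAG. The median window held 1 Sin3a peak, and 4 (600 kb) or 3 (500 kb) FLAG peaks, well below the mean. Windows were laid end to end from the start of each chromosome, without those that touched a block, and were not matched for their genes. A dense group elsewhere could be split between neighbouring windows, whereas the blocks were chosen with their peaks known, so the ranking favours the blocks.

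**Figure D1:**
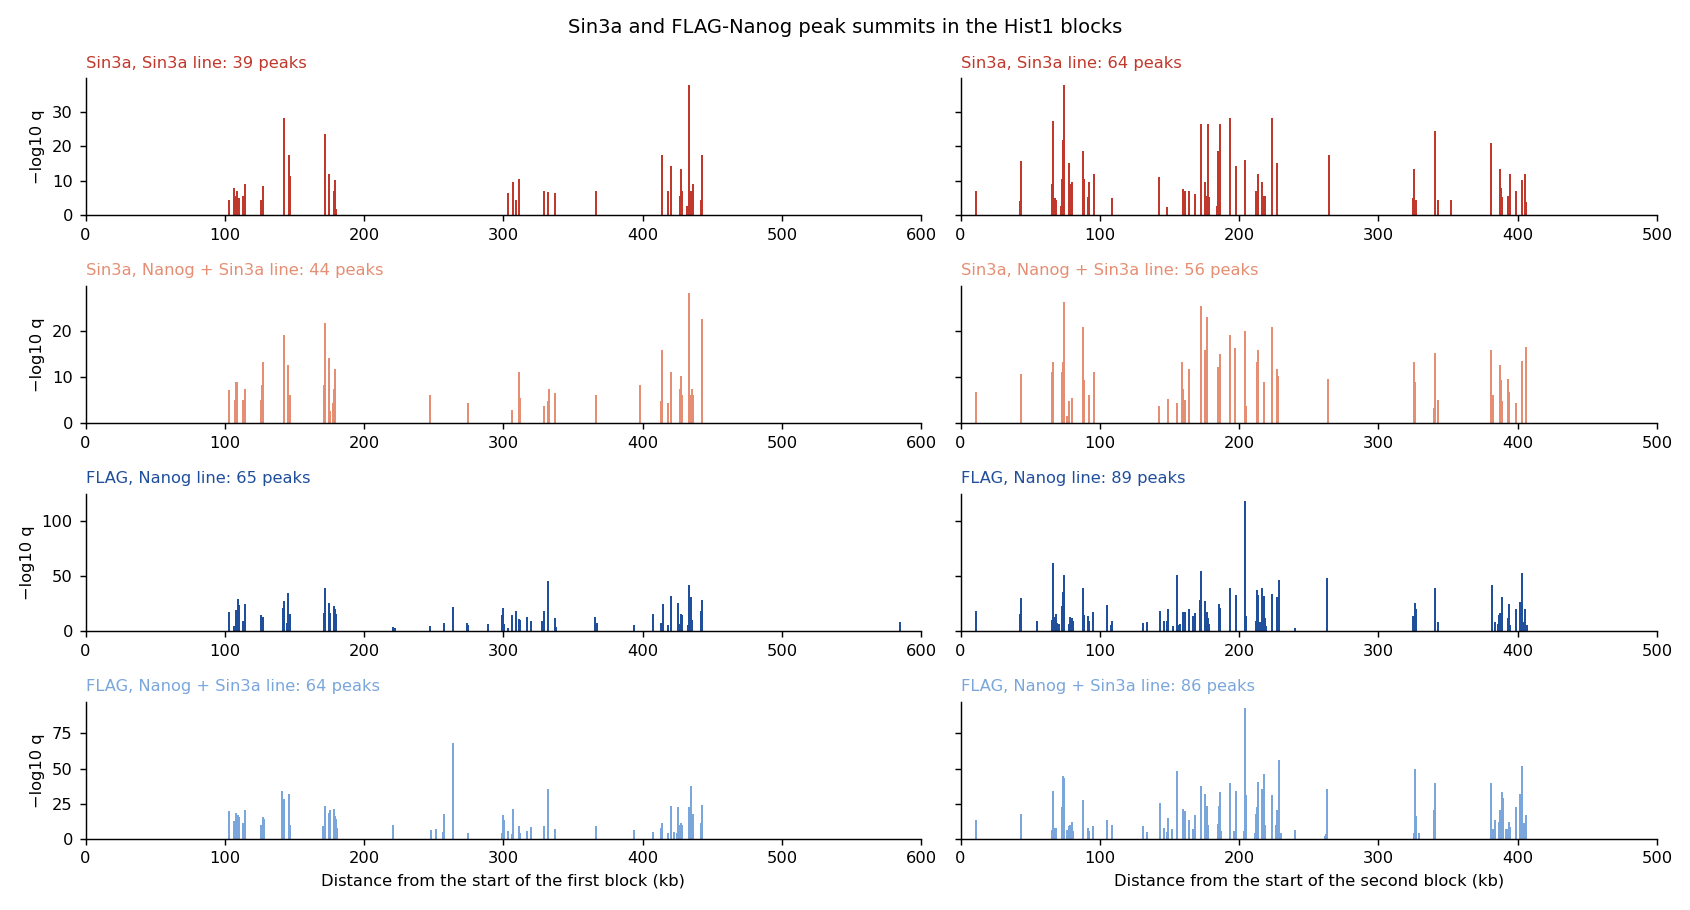
Peak summits along the first block (left) and second block (right) in each of the 4 lists. The x axis is the distance from the start of the block in kb, and the height of a line is the authors' −log10 q of the peak, on a scale of its own in each row. The Sin3a and FLAG summits stand in the same groups, with a sparse middle in the first block where FLAG peaks outnumber Sin3a peaks, and the tallest FLAG line stands in the second block in both lines, at 118 and 92.8.

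The limits of the blocks are wider than the groups of peaks. In the first block all 4 lists began 102 kb inside the left limit, and 3 of the 4 ended 157 kb inside the right one. FLAG in the Nanog line had a further lone peak 15.1 kb inside the right limit, with a −log10 q of 8.0. The nearest peaks outside lay 76.7 to 76.9 kb to the left of the first block. To its right they lay 499 kb away in both FLAG lists, and 1090 and 1092 kb away in the Sin3a lists, across the stretch between the blocks. In the second block the outermost peaks lay 10.5 to 10.7 kb inside the left and 93.4 to 94.1 kb inside the right limit. The nearest outside were 50.2 to 57.8 kb to the left and 286 to 423 kb to the right. The strength at these edges was mixed: for FLAG in the Nanog line the −log10 q of the leftmost peak was 17.2 in the first block and 18.0 in the second, beside 18.7 and 2.77 in the nearest peaks outside.

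Within the blocks the regions fell into stretches, here split wherever the gap between merged regions reached 20 kb, a limit chosen after the values were seen. The first block had 7 stretches and the second had 6, of which 3 and 4 held at least 7 regions with peaks of both proteins in most of them. In the first block these were 13:21801806-21846934 with 14 regions, 11 of them shared by Sin3a and FLAG, 13:21870627-21880950 with 7 regions, 6 shared, and 13:22093818-22143454 with 20 regions, 13 shared. In the second they were 13:23492607-23559101 with 23 regions, 18 shared, 13:23580604-23690181 with 38 regions, 24 shared, 13:23774891-23802540 with 7 regions, 5 shared, and 13:23830460-23856603 with 14 regions, 10 shared.

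The longest stretch of the first block differed in makeup from the stretches named above. It ran over 90.7 kb at 13:21947099-22037761 and held 24 regions, of which 14 had FLAG peaks alone, 9 had peaks of both proteins and 1 had a Sin3a peak alone. Over all regions of the genome, FLAG alone made up 57.5% and both proteins 37.2%, so the makeup of this stretch was near that of all regions. Peaks of all 4 lists met in 5 of these 24 regions, against 10 of 14 in the stretch at 13:21801806-21846934 and 25.7% of all regions. The median FLAG percentile in it was 48.6 in the Nanog line and 34.3 in the combined line, where the percentile is the share of the list's peaks with a lower −log10 q. In the stretch at 13:21801806-21846934 these medians were 72.9 and 70.5. It nevertheless held the strongest FLAG peak of the first block in each line.

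Neighbouring summits of a list stood a few kb apart. The median distance was 2507 bp (95% interval of the median 1250 to 3479) for Sin3a in the Sin3a line, 2790 bp (1264 to 4055) for Sin3a in the combined line, 1678 bp (1214 to 2570) for FLAG in the Nanog line and 1851 bp (1240 to 2560) for FLAG in the combined line. These intervals overlap, and the difference in spacing between FLAG and Sin3a peaks was not tested. The FLAG lists also hold more peaks (38485 and 36286) than the Sin3a lists (17168 and 18231), so closer spacing goes with peak number. Intervals here and below cover counting error over peaks only, and peaks of a list are not replicates. Over all peaks the medians were 24437, 20369, 11533 and 15069 bp. Distances under 1 kb made up 29.7%, 31.6%, 30.3% and 32.4% of the pairs in the blocks, against 12.6%, 16.3%, 15.1% and 12.3% of all pairs.

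**Figure D2:**
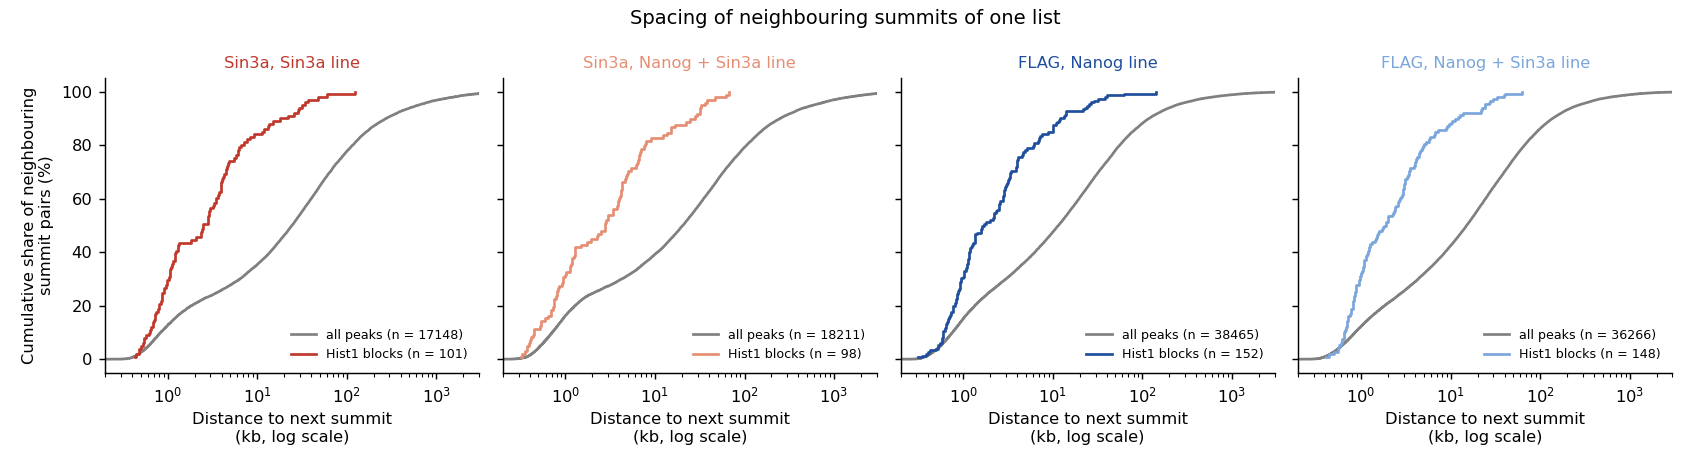
Cumulative share of pairs of neighbouring summits (y axis, %) by the distance between them (x axis, kb, log scale), 1 panel per list. Coloured lines are pairs within the Hist1 blocks and grey lines all pairs of the list: the coloured lines lie to the left in each panel, with medians of 2507, 2790, 1678 and 1851 bp from left to right.

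Spacing differed little between the blocks for Sin3a, at 2392 and 2792 bp in the Sin3a line and 2290 and 2864 bp in the combined line for the first and second block. For FLAG in the Nanog line it was 2311 bp in the first and 1356 bp in the second block, and in the combined line 1743 and 1891 bp, so the lines did not share a direction. Between merged regions the median gap was 1387 bp in the first block and 1224 bp in the second. The closest regions of the first block stood 86 bp apart (13:21973775-21973969 and 13:21974056-21974307), and those of the second 12 bp apart (13:23663580-23665549 and 13:23665562-23666465). The widest gap was 141283 bp in the first block, before the lone FLAG peak, and 60196 bp in the second, between 13:23712226-23714694 and 13:23774891-23775469.

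Merged regions in the blocks were wide. Their median width was 554 bp, with a range of 181 to 2754 bp, against 392 bp over all regions, and 39 of 155 (25.2%) spanned at least 1 kb, against 11.8% of all. More than 1 peak of the same list was joined in 31 of 155 (20.0%, against 8.59%). At least 2 kb was reached by 7 of 155 regions, against 490 of all 45707, and 6 of the 7 were in the second block. Each of the 7 had peaks of all 4 lists, as did 480 of the 490, so this was not particular to the blocks. The widest, 13:23851243-23853996, joined 1 Sin3a peak of each line with 3 and 2 FLAG peaks of the Nanog and combined lines. Regions of all 4 lists had a median of 1020 bp in the blocks and 894 bp in the genome, so that within this pattern the widths were closer. Regions covered 10.6% of the blocks and 0.934% of the whole span. Single peaks differed in the same way for FLAG, with median widths of 528 and 486 bp against 358 and 351 bp, but hardly for Sin3a, with 509 and 462 bp against 498 and 471 bp.

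Ranked within their own lists, the Sin3a peaks of the blocks were of ordinary or low strength and the FLAG peaks were above the middle. The median percentile was 39.4 (95% interval 33.8 to 47.7) for Sin3a in the Sin3a line and 43.8 (36.6 to 54.2) in the combined line. For FLAG it was 68.2 (61.2 to 71.6) in the Nanog line and 61.5 (51.4 to 71.5) in the combined line. The interval of the combined line included the middle of the list for Sin3a. The second block had the higher medians in every list, at 47.7 against 33.8 and 54.7 against 39.2 for Sin3a, and 70.0 against 65.6 and 65.6 against 58.0 for FLAG, but the intervals of the blocks overlapped in each list.

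Over both blocks together, the top of each list shows the same split between the proteins. Among the strongest 10% of their lists were 2 Sin3a peaks in the Sin3a line (1.94%, against 10.0% by construction) and 1 in the combined line (1.00%, against 10.0%). For FLAG there were 19 (12.3%, against 9.97%) in the Nanog line and 26 (17.3%, against 10.1%) in the combined line. The FLAG excess lay in the second block, with 15 (16.9%) and 21 (24.4%). In the first block FLAG too was below the share of all peaks, with 4 (6.15%) and 5 (7.81%). No interval was taken for these shares. The weakest 20% held 18 Sin3a peaks in each line (17.5% and 18.0%, against 19.3% and 20.3% of all peaks), and 13 and 18 FLAG peaks (8.44% and 12.0%, against 20.7% and 20.1%). The best rank of any member was 1083 and 1571 for Sin3a, and 172 and 338 for FLAG.

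In the authors' fold enrichment at the summit, a ratio of ChIP to expected background, Sin3a peaks of the blocks had medians of 4.20 and 4.44, against 4.72 and 4.63 over all peaks, and reached at most 9.24 and 8.59. FLAG peaks had medians of 6.02 and 5.38, against 4.75 and 4.74, and reached 21.5 and 18.2. The strongest peaks of the whole lists had folds of 27.3, 32.3, 42.4 and 42.8 in the same order. Behind these folds stood a median of 41 and 35 ChIP fragments per summit for Sin3a, and 41.5 and 45 for FLAG, recovered as whole numbers from the deposited values. The ranges were 27 to 92 and 22 to 71 for Sin3a, and 18 to 140 and 25 to 142 for FLAG. The folds of a peak with so few fragments carry wide counting intervals, given for single regions below. The 4 lists were scaled by 0.700, 0.772, 0.868 and 0.731, so that fragments and −log10 q are not on a common scale between lists. Strength was compared by rank within a list, and fragment numbers are given with their intervals for the precision of each value alone.

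As the authors' caller estimated it, the expected background at the summit was above the common level of the list in 32.0% and 25.0% of the Sin3a and 35.7% and 34.0% of the FLAG peaks of the blocks, against 46.3%, 43.2%, 51.8% and 51.7% of all peaks. It reached at least 2 times that level at 3, 2, 4 and 2 of the members (2.91%, 2.00%, 2.60% and 1.33%), against 1.44%, 0.875%, 1.51% and 1.40% of all peaks. Such strongly raised background was thus rare. With so few members and no interval taken, these shares were not set apart from those of all peaks. The sources used here do not say whether the lists were called against the same control.

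**Figure D3:**
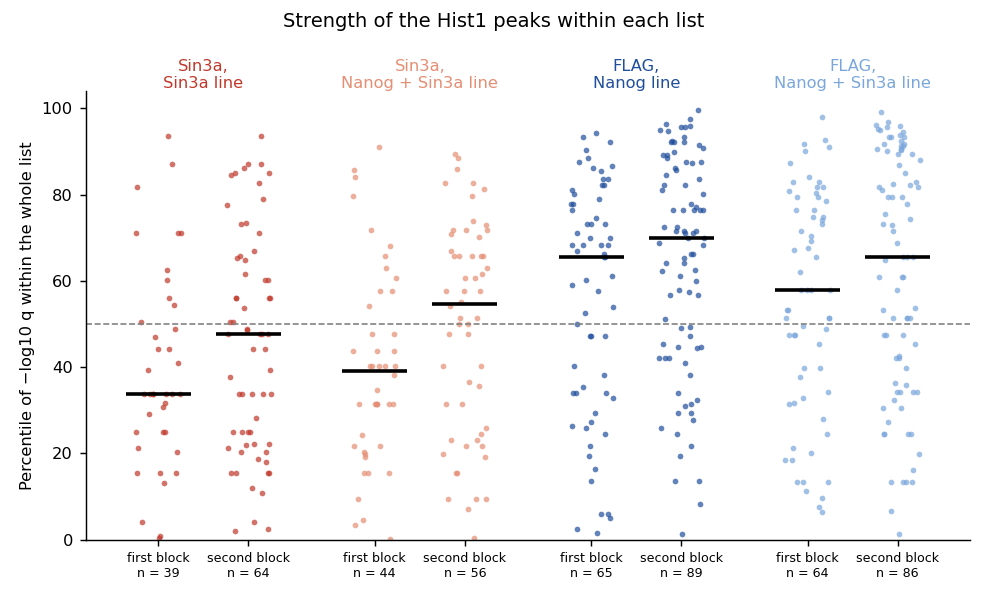
Percentile of the −log10 q of each Hist1 peak within its whole list (y axis, %), by list and block (x axis, with the number of peaks). Points are peaks, spread sideways at random, black bars are medians and the dashed line is the middle of the list: the Sin3a points are scarce near the top, with 2 and 1 peaks in the strongest 10%, whereas FLAG has 19 and 26 there.

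Nearly every Sin3a peak of the blocks lay at a FLAG peak. In the single-transgene lines 100 of 103 Sin3a peaks shared bases with FLAG peaks of the Nanog line (97.1%, 95% Wilson interval 91.8 to 99.0), against 88.5% of all Sin3a peaks. The share was 39 of 39 in the first block and 61 of 64 in the second. In the combined line it was 94 of 100 (94.0%, 87.5 to 97.2), against 80.3%, with 41 of 44 and 53 of 56 in the blocks. Since overlap can vary with strength, the share was also taken over all peaks weighted to the strength of the members in 5 bands. It was then 86.8% and 78.8%, below both intervals.

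FLAG peaks lay at Sin3a peaks at a higher share than all FLAG peaks, but far from always. In the single-transgene lines 103 of 154 did so (66.9%, 59.1 to 73.8), against 41.8% of all FLAG peaks and 49.2% at the strength of the members. In the combined line it was 92 of 150 (61.3%, 53.3 to 68.8), against 42.2% and 45.5%. By block the counts were 40 of 65 and 63 of 89 in the single-transgene lines, and 37 of 64 and 55 of 86 in the combined line. Sin3a peaks covered 3.99% and 3.58% of the first block and 8.52% and 6.97% of the second, against 0.399% and 0.410% of the genome, so more overlap would also come from closer packing, and its part was not tested.

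These differences depended on the setting. With only peaks of a −log10 q of at least 10 in both lists, the FLAG share at Sin3a was 44.6% in the single-transgene lines, against 39.2% of all peaks, and 47.6% in the combined line, against 35.0%, a narrower gap. The Sin3a share at FLAG was then 97.6%, against 79.7%, and 92.7%, against 68.0%, a wider one. With summits within 200 bp in place of a shared base, the Sin3a share at FLAG was 74.8% in the single-transgene lines, against 70.4% of all, and 60.0% in the combined line, against 61.2%, where the excess over all peaks was gone. The FLAG share at Sin3a was then 50%, against 31.4%, and 40.0%, against 30.8%. No interval was taken under these settings, so small gaps, such as 74.8% against 70.4% or 44.6% against 39.2%, were not set against counting error.

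**Figure D4:**
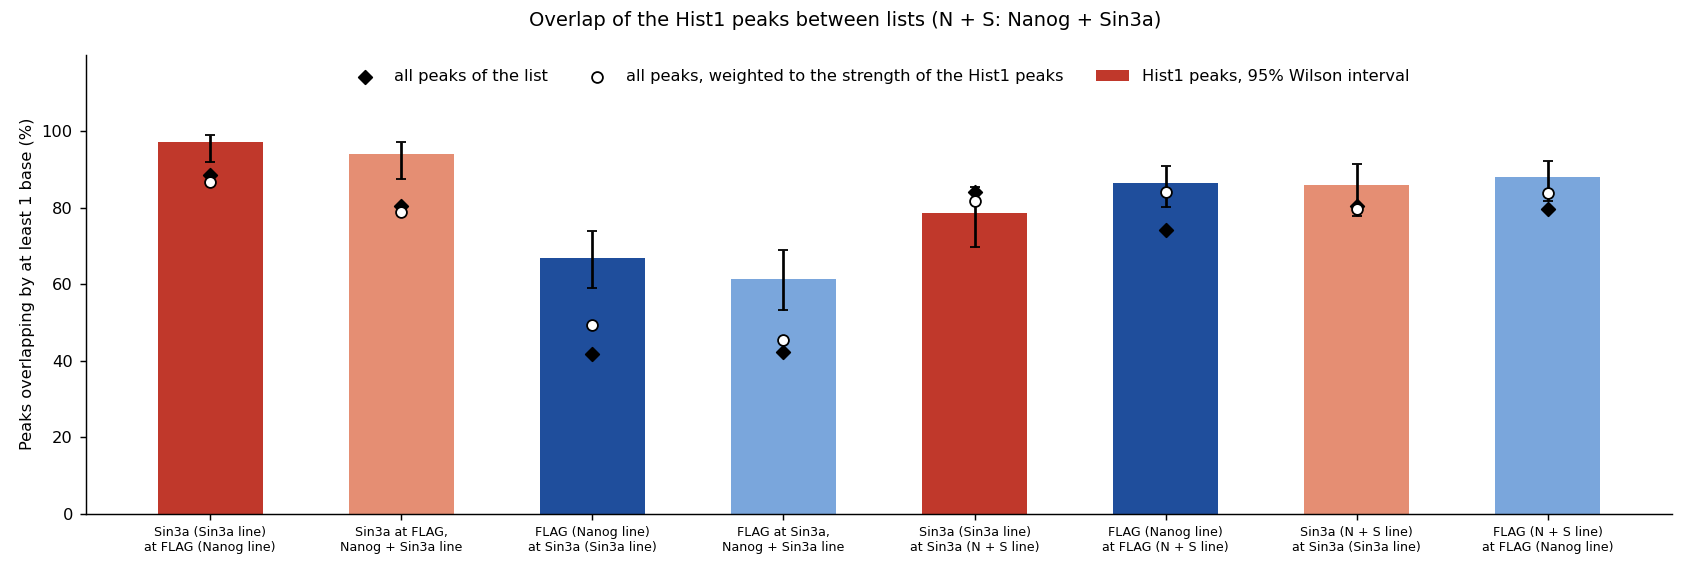
Share of Hist1 peaks that share at least 1 base with a peak of another list (y axis, %), for 8 pairings of lists (x axis). Bars are the Hist1 peaks with 95% Wilson intervals, diamonds all peaks of the list and circles all peaks weighted to the strength of the Hist1 peaks: bars stand clear of both marks for Sin3a at FLAG (97.1% and 94.0%) and FLAG at Sin3a (66.9% and 61.3%), but not for the same protein between lines, except the diamonds for FLAG.

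The peaks that overlapped the other protein had the higher median fold and width. FLAG peaks at Sin3a peaks had a median fold of 6.59 and a median width of 637 bp in the single-transgene lines, against 4.30 and 298 bp for those away from Sin3a. In the combined line the values were 6.95 and 702 bp, against 4.30 and 356 bp. A wider peak shares a base with another peak more readily, and the part of this in the difference of widths was not tested. The strongest FLAG peaks away from Sin3a still had a −log10 q of 51.1 and 68.5. The 3 and 6 Sin3a peaks away from FLAG had median folds of 3.43 and 3.87, against 4.20 and 4.47 for those at FLAG, and reached 3.65 and 5.14. The last of these, at 13:23515308-23515798 in the combined line, had a −log10 q of 11.1 and a percentile of 57.6, above the middle of its list.

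Between lines, each protein kept most of its peaks in the blocks. In the Sin3a line 81 of 103 Sin3a peaks overlapped a Sin3a peak of the combined line (78.6%, 69.8 to 85.5, against 84.2% of all), and 86 of 100 did so the other way (86.0%, 77.9 to 91.5, against 80.4%). In the Nanog line 133 of 154 FLAG peaks overlapped one of the combined line (86.4%, 80.1 to 90.9, against 74.2% of all and 84.0% at the strength of the members), and 132 of 150 did so the other way (88.0%, 81.8 to 92.3, against 79.7% and 83.7%). At matched strength none of these 4 shares stood outside its interval, and the share of the blocks cannot be called unlike that of other peaks.

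Peaks without a partner in the other line had the lower median strength. Their median −log10 q was 4.68 and 5.07 for Sin3a of the Sin3a and combined lines, against 10.1 and 9.48 for peaks with a partner, and 6.51 and 5.27 for FLAG of the Nanog and combined lines, against 17.1 and 15.1. The 22 Sin3a peaks that were in the Sin3a line alone had a −log10 q of 1.89 to 9.73, and the 14 in the combined line alone had 1.64 to 8.24. For FLAG, the 21 in the Nanog line alone had 2.37 to 18.1 and the 18 in the combined line alone 2.20 to 14.3. The upper ends for FLAG, at 13:22008882-22009216 and 13:21828261-21828617, were at percentiles of 73.1 and 67.3, so some peaks without a partner ranked well above the middle of their list. With 1 list per group, a peak missing from a list may lie just under the threshold of the caller, and no gain or loss can be read from it.

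By region, the most common pattern was a peak in all 4 lists. It held in 72 of 155 regions (46.5%, 38.8 to 54.3), against 25.7% of all regions, with 31 of 70 in the first block (44.3%) and 41 of 85 in the second (48.2%). Peaks of both proteins in any line were found in 99 of 155 (63.9%, against 37.2%). Regions with FLAG alone numbered 53 (34.2%, against 57.5%), and regions with Sin3a alone 3 (1.94%, 0.660 to 5.54, against 5.27%), where the interval includes the share of all regions. Merging joins peaks in chains, so the peaks of a region need not all overlap each other. A first-block region of all 4 lists held a combined-line Sin3a peak (−log10 q 1.38) that overlapped no FLAG peak of that line. Several peaks of a list were joined in 43.1% of the regions of all 4 lists in the blocks, against 27.6% in the genome. The part of chaining in the shares by region was not tested.

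The remaining patterns were smaller. FLAG peaks of both lines without Sin3a made up 24 regions (15.5%, against 26.9% of all regions), 14 in the first and 10 in the second block. FLAG of the Nanog line alone gave 15 (9.68%, 5.95 to 15.4, against 16%). FLAG of the combined line alone gave 14 (9.03%, 5.46 to 14.6, against 14.5%), where the interval includes the share of all regions. With FLAG present in both lines, Sin3a was called in the Sin3a line alone in 15 regions (9.68%, 5.95 to 15.4, against 2.87%), 4 in the first and 11 in the second block. It was called in the combined line alone in 7 (4.52%, 2.20 to 9.03, against 3.65%), 4 and 3 by block, a share near that of all regions. Both shares are taken over all regions and not over those with FLAG in both lines. Regions of all 4 lists were likewise more common in the blocks (46.5%, against 25.7%). The other patterns held 0 to 2 regions each. Sin3a of both lines without FLAG held 0 (interval 0 to 2.42%), against 1.62% of all regions, a share within the interval.

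In the regions of all 4 lists FLAG ranked above Sin3a. The median Sin3a percentile there was 50.4 in the Sin3a line and 57.6 in the combined line, against 63.5 and 65.8 in all such regions of the genome. The median FLAG percentile was 79.0 in the Nanog line and 80.5 in the combined line, against 76.3 and 68.2. The FLAG percentile was the higher in 65 of 72 regions for the single-transgene lines (90.3%, against 62.9% of all 11761) and in 60 of 72 for the combined line (83.3%, against 49.6%). The blocks were alike in this, with 28 of 31 and 37 of 41, and with 24 of 31 and 36 of 41.

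**Figure D5:**
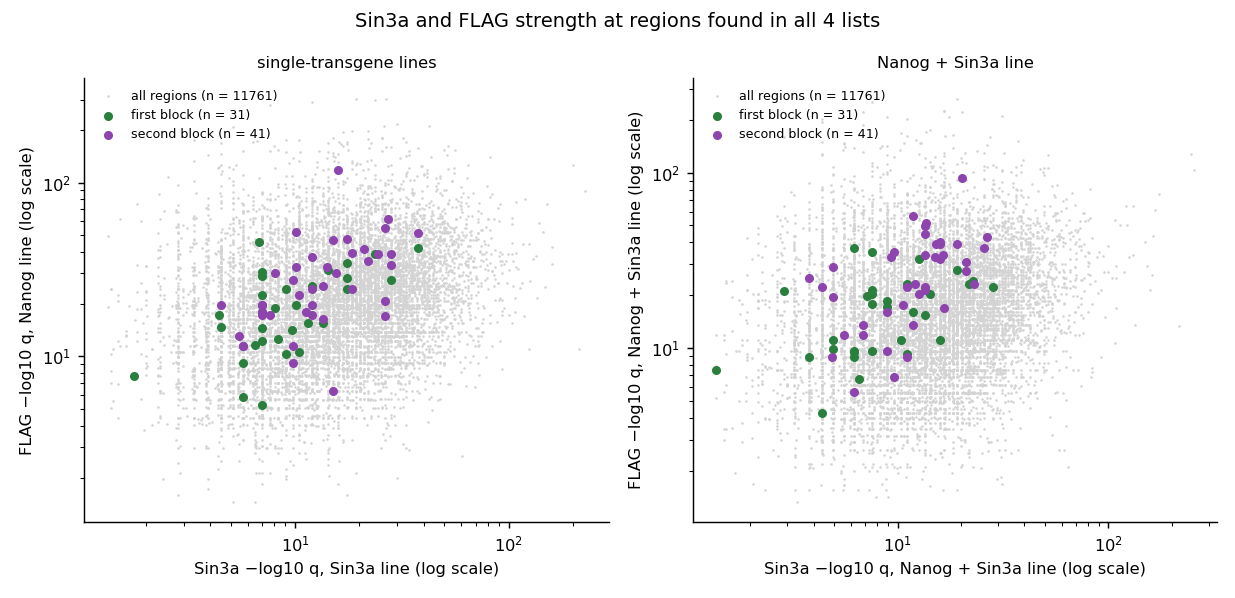
Authors' −log10 q of the strongest Sin3a peak (x axis, log scale) and FLAG peak (y axis, log scale) in each region with peaks of all 4 lists, for the single-transgene lines (left) and the combined line (right). Grey points are all 11761 regions, green the 31 of the first block and purple the 41 of the second: the coloured points reach at most 37.7 and 28.4 for Sin3a but 118 and 92.8 for FLAG.

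Strength of the proteins was related across regions with 1 peak of each. Spearman's rho of Sin3a and FLAG −log10 q was 0.639 over 71 regions for the single-transgene lines and 0.506 over 59 regions for the combined line, against 0.357 and 0.273 over all such regions. Between lines it was 0.765 over 55 regions for Sin3a and 0.777 over 94 for FLAG, against 0.812 and 0.735. Both values of a point come from the same site and may share the control, so rho is a description. The Sin3a and FLAG summits were a median of 77 bp apart (95% interval 59 to 100) in the single-transgene lines and 89 bp (50 to 135) in the combined line, close to the 75 and 84 bp of all such regions. FLAG summits of the 2 lines were 53.5 bp apart (43 to 75), against 37 bp, and 71.3% were within 100 bp, against 83.9%. Sin3a summits of the 2 lines were 48 bp apart (27 to 97), against 51 bp.

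The strongest member was 13:23653666-23654596 in the second block, with peaks of all 4 lists. Its fold was 21.5 for FLAG in the Nanog line, from 140 fragments (95% Poisson interval 118 to 165), and 18.2 in the combined line, from 142 (120 to 167). With a −log10 q of 118 and 92.8 it ranked 172 and 338. Sin3a was moderate there, at folds of 6.05 (Sin3a line) and 7.06 (combined line), from 54 (41 to 70) fragments in each, and ranked 5512 and 3336. FLAG was thus near the top of its list in both lines, and Sin3a further down.

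The region 13:23524280-23525254 of the second block was strong for both proteins. Sin3a had a fold of 9.14 in the Sin3a line, from 90 fragments (72 to 111), and 8.20 in the combined line, from 63 (48 to 81). FLAG had 12.3 in the Nanog line, from 80 (63 to 100), and 9.96 in the combined line, from 94 (76 to 115). The 4 summits lay between positions 23524552 and 23524602, the closest agreement of position among the regions named here with peaks of all 4 lists except 13:21871246-21872918. The region 13:23622049-23624426, 2378 bp wide, was alike, with Sin3a folds of 7.80 and 7.95 and FLAG folds of 12.8 and 9.92 in the same order of lines.

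A further pair of strong regions of the second block had little or no Sin3a. At 13:23605328-23606100 FLAG had folds of 12.4 and 11.8, from 80 (63 to 100) and 92 (74 to 113) fragments, whereas Sin3a had no peak in the Sin3a line and a fold of 3.34 in the combined line, from 29 (19 to 42). At 13:23666647-23667752 FLAG had 9.18 and 11.6, from 59 (45 to 76) and 90 (72 to 111), and there was no Sin3a peak in either line. Its neighbour 13:23665562-23666465 held FLAG at 10.6 and 9.82 and Sin3a in the Sin3a line alone, at a fold of 4.74 from 42 (30 to 57) fragments. Strong FLAG peaks with and without a Sin3a peak thus neighboured each other in the single-transgene lines. This contrast rests on that single Sin3a peak, at a percentile of 47.7, since neither site had a Sin3a peak in the combined line.

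In the first block the region with the highest mean −log10 q had FLAG peaks alone. The mean was taken over the lists that had a peak, so a region without Sin3a peaks, whose −log10 q was mostly lower, can rank higher. At 13:21963113-21964067 FLAG in the Nanog line had a fold of 7.50, from 48 fragments (35 to 64), and in the combined line 14.9, from 116 (96 to 139). Its −log10 q was 21.7 and 68.5, and its rank 7968 and 702. The rank was higher in the combined line, but no replicate was available and a difference between lines was not tested. At 13:21840705-21841665, also FLAG alone, the folds were 7.35 and 8.71, from 47 (35 to 63) and 82 (65 to 102) fragments.

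Next to this last region, 13:21841776-21842997 had peaks of all 4 lists, with Sin3a folds of 8.13 and 6.93 and FLAG folds of 8.57 and 8.55. The strongest Sin3a peaks of the first block were at 13:22132144-22133492, with folds of 9.24 in the Sin3a line, from 91 (73 to 112) fragments, and 8.59 in the combined line, from 66 (51 to 84), ranks 1083 and 1571. FLAG there had folds of 11 and 7.53, from 71 (55 to 90) and 58 (44 to 75). At 13:21871246-21872918 Sin3a had 7.37 and 7.31 and FLAG 10.6 and 7.66. The strongest FLAG peak of the first block in the Nanog line was at 13:22032046-22033211, with a −log10 q of 45.4, and 35.2 in the combined line, beside 6.74 and 7.55 for Sin3a. It was named after its value was seen.

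Regions of the rarer patterns are given by their strongest example. Sin3a without FLAG was strongest at 13:22097857-22098176, in the combined line alone, with a fold of 4.50 from 34 (24 to 48) fragments, and at 13:23802305-23802540, in the Sin3a line alone, with 3.43 from 30 (20 to 43). By −log10 q, FLAG of the combined line alone was strongest with a fold of 5.99 from 46 (34 to 61) fragments at 13:21828261-21828617 and 4.19 from 33 (23 to 46) at 13:23841479-23841828. FLAG of the Nanog line alone was strongest, again by −log10 q, with a fold of 4.75 from 30 (20 to 43) at 13:22027300-22027561 and 3.23 from 51 (38 to 67) at 13:23504661-23504874. The 7 other regions of this pattern in the second block had lower −log10 q values but higher folds, up to 4.14 at 13:23520435-23520692. FLAG of both lines with Sin3a of the Sin3a line alone was strongest in the first block at 13:21809852-21810726, with FLAG folds of 7.81 and 6.14 and a Sin3a fold of 3.65. FLAG of both lines with Sin3a of the combined line alone was strongest there at 13:21870627-21871096, with 6.43 and 4.74, and 4.50 for Sin3a.

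The remaining patterns had a single or a pair of regions each. At 13:22008882-22009216 Sin3a of the Sin3a line (fold 3.54) met FLAG of the Nanog line (6.74). At 13:23526390-23526923 Sin3a (2.34) met FLAG (4.07) in the combined line. At 13:23515888-23516167 FLAG of the Nanog line was missing beside Sin3a folds of 3.65 and 4.38, and at 13:23515308-23515798 FLAG of the combined line was missing beside 4.63 and 5.14.

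Genes of a histone class are close to identical in sequence, as are many tRNA genes, so that short reads from them can match several copies. The sources used here do not say how reads with several matches were treated, so that the place of a peak among such copies is uncertain.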

How the data were processed

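Peaks came from 4 lists without a header, each for 1 group of 2 replicates. Per the submitters' processing notes, the build was mm9 and the tools were Bowtie 1.0.0, SAMtools 0.1.19 and FastQC 0.10.1. The sources used here name no peak caller or threshold and do not say whether replicates were pooled. The deposited score is 10 times the −log10 q without decimals in every row. The deposited fold is a ratio of the scaled ChIP pileup to the expected background at the summit, with 1 added to each. The deposited −log10 p is a Poisson tail of that pileup, and the authors adjusted it to the deposited −log10 q. No p was computed here.

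The whole number of ChIP fragments at each summit was recovered from fold and −log10 p, with exactly 1 number in 100%, 99.6%, 100% and 99.8% of the peaks (Sin3a in its own and in the combined line, then FLAG in the Nanog and combined lines). Total reads per sample are not used here. Peaks overlapped where they shared at least 1 base, and overlapping peaks of the 4 lists were merged. Shares carry 95% Wilson intervals, medians order-statistic intervals and fragments exact Poisson intervals. The regions named are the 5 of highest mean −log10 q, over the lists with a peak, in each block, the strongest of each other pattern, and the closest and widest gaps. The genes shown are the first of each class in gene order. The members, lists and rules were chosen with earlier results of these data known. Alternatives were an overlap of 50% of the shorter peak, summits within 200 bp, a −log10 q of at least 5 or 10, ranking by fold, and limits moved by 50 kb. The code was tested on simulated data. The tools were SciPy 1.17.1, NumPy 2.4.6, Matplotlib 3.10.9 and pandas 2.3.3 under Python 3.11.15.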

Additional observations from a re-analysis of the deposited data

How the results depend on the processing

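Of 56 values under other settings, 38 stayed near the reported value, that is within 1.5 times for counts and within the reported 95% interval for shares and medians, and 18 moved. With a −log10 q of at least 10, fewer peaks remain by construction: 41 and 41 Sin3a peaks (Sin3a line, combined line), 101 and 84 FLAG peaks (Nanog line, combined line), and 33 regions of all 4 lists. The median spacing was then 6721 and 6641 bp for Sin3a and 2794 and 3190 bp for FLAG, against 54228, 55556, 29648 and 37825 bp over all peaks. FLAG at Sin3a was then 44.6% in the single-transgene lines and 47.6% in the combined line, and FLAG of the Nanog line at FLAG of the combined line 78.2%. With summits within 200 bp the shares were 74.8% and 60.0% for Sin3a at FLAG, 50% and 40.0% for FLAG at Sin3a (single-transgene lines first), 62.1% for Sin3a and 72.7% for FLAG between lines, and the cause was not tested. Ranking by fold, 50% overlap, a −log10 q of at least 5 and moved limits moved no value out of these limits.

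No paired analysis was possible because the 4 lists carry no value per replicate, and for the same reason no replicate was left out. Depth limits what a missing peak says: the smallest fragment numbers of any member were 27, 22, 18 and 25 (Sin3a first, FLAG last, the combined line as the latter of each). The blocks were chosen for their peaks, the gene table is of another build, and the placing of reads from near-identical genes was not tested.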
